A study of Mus musculus with 9 samples.

Results

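Of the 10 genes *Apoa1*, *Apoa2*, *Apoa4*, *Apoa5*, *Apob*, *Apoc1*, *Apoc3*, *Apoe*, *Apom* and *Mttp*, which encode apolipoproteins and the protein that loads *Apob* with lipid, 5 were listed in both deposited expression tables and 5 in neither. They were looked up by gene identifier, through the symbols of the GENCODE M1 annotation, among the 13643 genes that either table lists. The RNA came from AML12, a hepatocyte line established from mice that carry a human transforming growth factor alpha transgene and kept in medium with dexamethasone and an insulin, transferrin and selenium supplement. There were 3 libraries of cells with the control hairpin (Ctrl), 3 with the first hairpin against *Srrm2* (sh1) and 3 with the second (sh2), taken on day 5 of infection with lentivirus, and all groups were infected cultures of the same line. *Srrm2* encodes a scaffold protein of nuclear speckles (NSs).

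Apolipoproteins are the protein coat of lipoprotein particles. In the liver, *Apob* forms the backbone of very low density lipoprotein, and the microsomal triglyceride transfer protein, encoded by *Mttp*, adds triglyceride to it in the endoplasmic reticulum. *Apoa1* and *Apoa2* are the main proteins of high density lipoprotein, *Apoe* is a ligand of lipoprotein receptors, and *Apoc1*, *Apoc3* and *Apoa5* modulate lipolysis and uptake of the particles.

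The measurement used was the mean normalized count of each gene, which is the number of read pairs on the gene divided by a size factor of the library and averaged over the libraries of a table. The tables were taken to hold 3 Ctrl and 3 sh1 libraries, and the same 3 Ctrl and 3 sh2 libraries. The sample titles and table names give this reading, but the descriptions assign 1 of the 3 Ctrl libraries to the table of sh2 and the other 2 to tables of further hairpins, and no column of a table names a library. These are the authors' means. The tables hold no value per library, and their fold changes, standard errors and p-values were not used here, so the levels below carry no replicate error, no test was made, and the level in Ctrl cells alone is known only as an upper limit under this reading. The means sum to 6144608 over 13424 genes in the table of sh1 and to 6393456 over 13478 genes in the table of sh2. The depth of single libraries is unknown. *Srrm2* had means of 3428 and 3759, which average Ctrl and knockdown cells and therefore do not check the knockdown.

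*Apob* stood far above the other members. Its mean normalized count was 20192 in the table of sh1 and 22608 in the table of sh2, and 9 genes had a higher mean in either table. *Apob* (ENSMUSG00000020609.8) is annotated on chromosome 12 (mm9, 7984454 to 8023641, + strand), and its longest transcript has 29 exons. Because its merged exons cover 13934 bases, the level per length places it lower than the count does, at 1449 counts per kb of merged exons with sh1 and 1623 with sh2, which are percentiles 99.1 and 99.2 of the listed genes. *Apob* held 96.2% of the summed mean normalized counts of the 5 listed members in the table of sh1 and 96.3% in the table of sh2, and 77.1% and 77.5% of their summed counts per kb.

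*Apoe* (ENSMUSG00000002985.9, - strand of chromosome 7, 20281458 to 20284515) came next, with means of 712.6 and 792.1 normalized counts in the tables of sh1 and sh2. Its 360 and 400 counts per kb lay at percentiles 94.4 and 94.9 of the listed genes, and its level per kb was 4.03 and 4.06 times lower than that of *Apob*.

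The other 3 listed members lay lower, below the medians of 43.1 and 44.8 counts per kb over all listed genes. *Apoa1* (ENSMUSG00000032083.8, + strand of chromosome 9, 46036663 to 46038549), the defining protein of high density lipoprotein, had means of 39.4 and 38.9 normalized counts, or 31.9 and 31.5 counts per kb. *Apoc1* (ENSMUSG00000040564.7, - strand of chromosome 7, 20274833 to 20278007) had means of 17.2 and 18.5 normalized counts, and with only 537 bases of merged exons this gave 32.1 and 34.4 counts per kb. Per kb the level of *Apoa1* was therefore 0.99 and 0.91 times that of *Apoc1*, and no replicate spread is at hand to say whether these neighbours differ. *Apoe* was 11.3 and 12.7 times above *Apoa1* per kb. *Apoa1* and *Apoc1* lay at percentiles 42.8 and 43.1 of the genes listed with sh1, and at 41.5 and 43.6 of those listed with sh2.

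*Mttp* (ENSMUSG00000028158.8, - strand of chromosome 3, 137752819 to 137806352, with 20 exons in its longest transcript) was the lowest listed member per length. Its means were 32.7 and 27.6 normalized counts, or 7.43 and 6.26 counts per kb, at percentiles 19.5 and 17.3. The level of *Apob* per kb was 195 and 259 times that of *Mttp*. The order per kb of merged exons, *Apob*, *Apoe*, *Apoc1*, *Apoa1* and *Mttp*, was the same in both tables, which are not independent where they share Ctrl libraries. With the longest transcript as the length, *Apoa1* lay above *Apoc1* in the table of sh1, at percentiles 42.4 and 40.7.

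**Figure D1:**
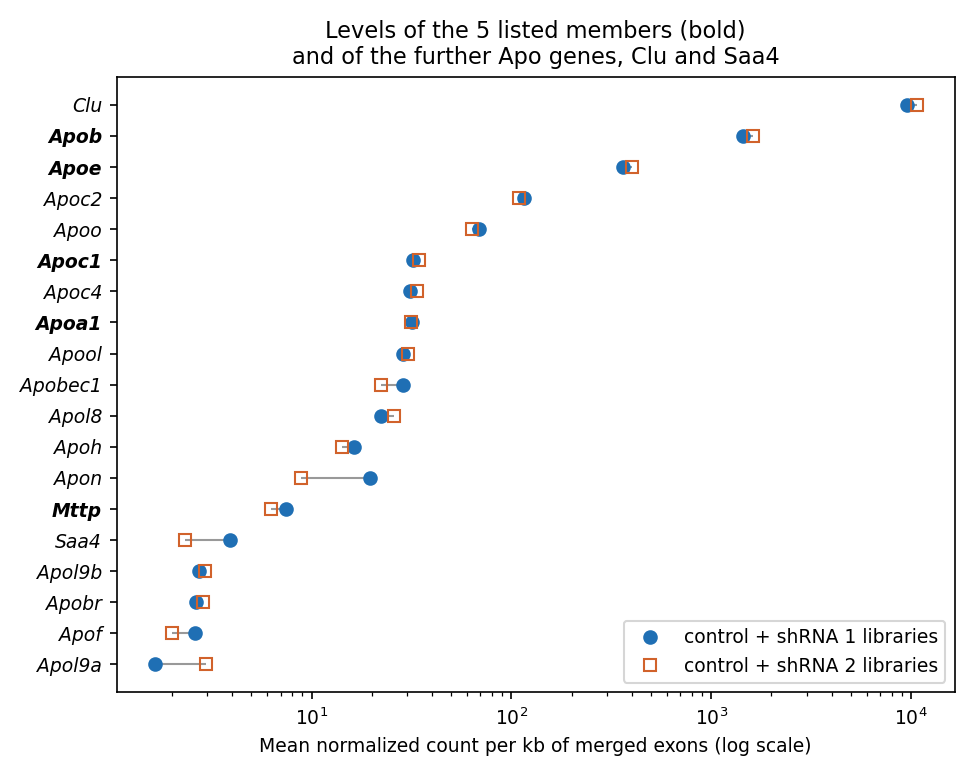
Mean normalized count per kb of merged exons (log axis) of the 5 listed members, in bold, and, of the further list, the genes with an Apo symbol, *Clu* and *Saa4* that were listed in both tables, with a filled circle for the Ctrl and sh1 libraries and an open square for the Ctrl and sh2 libraries. Each point is 1 deposited mean without an error bar, and *Apob*, at 1449 and 1623, is second to *Clu*.

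*Apoa2*, *Apoa4*, *Apoa5*, *Apoc3* and *Apom* had no row in either table. The annotation holds all 5, *Apoa2* (ENSMUSG00000005681.6) on chromosome 1 from 173155185 to 173156510, *Apom* (ENSMUSG00000024391.6) on chromosome 17 from 35265942 to 35268995, and the other 3 beside *Apoa1*. Of 22380 protein-coding genes of GENCODE M1, 57.3% were listed in at least one table. The lowest mean in a table was 1.56 with sh1 and 1.92 with sh2, and the genes listed in one table alone had a median of 2.6 and a maximum of 8.67 normalized counts. The level of an unlisted gene is not known from these tables and is not taken as 0.

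The members outside chromosomes 1, 3, 12 and 17 sit in a pair of gene clusters that differed in how many of their genes were listed. Of all protein-coding genes 57.3% were listed in either table, and whether the clusters depart from this share was not tested. In the cluster on chromosome 9, which spans 43.3 kb, *Apoa1* was listed while *Apoc3* (ENSMUSG00000032081.3, 46041016 to 46043719), *Apoa4* (ENSMUSG00000032080.6, 46048779 to 46051542) and *Apoa5* (ENSMUSG00000032079.5, 46076716 to 46080002) were not. In the cluster on chromosome 7, which spans 27.6 kb, all 4 apolipoprotein genes were listed. There *Apoc2*, the activator of lipoprotein lipase, had means of 108 and 102 normalized counts, and *Apoc4* had 14.5 and 15.6, beside *Apoc1* and *Apoe*. *Apoc2* and *Apoc4* lie on the same strand and share 112 exonic bases in the annotation, so pairs on that stretch cannot be assigned to either. *Apoa4* shares 632 exonic bases with *Gm10680* on the opposite strand, and no other member overlaps another annotated gene.

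**Figure D2:**
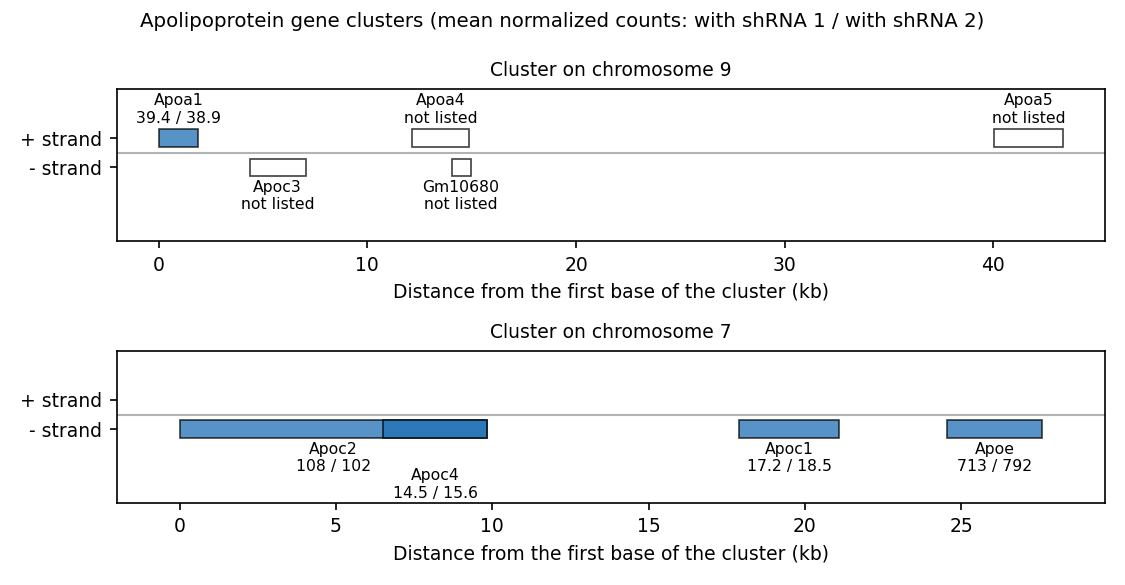
Apolipoprotein genes of the clusters on chromosomes 9 and 7 (mm9), drawn to scale by distance from the first base of each cluster in kb, with the + strand above the line and the - strand below. Filled boxes are listed genes with their mean normalized counts in the tables of sh1 and sh2, and open boxes are genes with no row, 3 of the 4 apolipoprotein genes on chromosome 9 and none of the 4 on chromosome 7.

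To show the proximal sequence of a member at the top of the range and of one with no row, the RefSeq promoters (GRCm38.p6, 250 bases before to 50 after the annotated start) of *Apob* and *Apoa5* are given, with matches to the TATA motif TATAAA in capitals. Both were placed on mm9 by an exact and single match, *Apob* at chr12:7984233-7984532 and *Apoa5* at chr9:46076441-46076740, both on the + strand.
Apob: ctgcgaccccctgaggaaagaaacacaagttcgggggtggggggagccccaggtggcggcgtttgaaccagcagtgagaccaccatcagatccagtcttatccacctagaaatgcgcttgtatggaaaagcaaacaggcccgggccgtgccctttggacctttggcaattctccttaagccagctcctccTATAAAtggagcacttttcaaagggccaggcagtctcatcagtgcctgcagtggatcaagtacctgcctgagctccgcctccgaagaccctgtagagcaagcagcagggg
Apoa5: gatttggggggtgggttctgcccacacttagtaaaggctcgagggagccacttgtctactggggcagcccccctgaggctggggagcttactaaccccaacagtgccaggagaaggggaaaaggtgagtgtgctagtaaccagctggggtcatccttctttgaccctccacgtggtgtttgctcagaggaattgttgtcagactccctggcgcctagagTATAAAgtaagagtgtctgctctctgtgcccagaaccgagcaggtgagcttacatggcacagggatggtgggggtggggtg

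The match in *Apob* begins 60 bases before the RefSeq start and 31 bases before the GENCODE M1 start. The match in *Apoa5* begins 31 bases before the RefSeq start shown and 56 bases before the GENCODE M1 start, which is also a RefSeq start. On either strand, TATAAA occurred in 13.6% of 32851 promoters of the same length, and in 5 of the 12 promoters of the 8 members with an entry, which were 1 each of *Apoa2*, *Apob* and *Apoe* and both of *Apoa5*, whose windows overlap and hold the same match. *Apoc1* and *Apoc3* had no entry. The nuclear receptor motif AGGTCA was found in 16.3% of all promoters and in 1 of the 12, of *Apoa2*. CAAAGTCCA, a form of the HNF4A motif, was found in 0.475% and in 0 of the 12. At so low a share, 12 promoters are too few to show a lack of this motif. GTTAAT, the last motif searched, was found in 7.1% and in 1 of the 12, of *Apoe*. These motifs were searched on both strands, and a match describes the letters of this window only. The TATA match of *Apoa2* began 212 bases before its start. That of *Apoe* began 96 bases before a RefSeq start and lay inside the gene as GENCODE M1 annotates it. Listed and unlisted members were both among those with the TATA motif, at these unlike positions.

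If both tables hold the same 3 Ctrl libraries, a difference between their means comes from the hairpin libraries. All limits for a group and all differences between sh2 and sh1 cells given below rest on this reading, which the tables cannot check. Under it, and once the scales are set equal, the difference between the sh2 and sh1 means is 2 times the difference between the tables, and the ratio of the table means is the smallest ratio that the hairpins' own means can have. The means of sh2 were divided by the median ratio of the 7757 genes whose means reach 100 in each table, a log2 shift of 0.07. With this centring, 13.2% of the 13259 genes in both tables differed by more than a ratio of 5 to 4 (0.32 on the log2 scale) in either direction, 6.72% being higher and 6.52% lower in the table of sh2. The share was 16.1% among 3381 genes with means of 10 to 100 in both tables and 4.2% at 100 or more. These shares describe 1 pair of means for each gene and have no replicate check.

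Of the 5 listed members, 0 passed this limit between the tables, where 13.2% of all genes did. With so few members, this count does not set them apart from other genes. *Mttp* came closest. Its mean of 32.7 with sh1 stood against 26.3 with sh2 after centring, a log2 difference of -0.32 that falls short of the limit in the next decimal (-0.315 against 0.322). On these means *Mttp* was 12.9 normalized counts higher in sh1 than in sh2 cells, and its level in Ctrl cells was at most 52.6 normalized counts. Past 1.1-fold, *Mttp* was the only one of the 5, where 40.9% of all genes passed.

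*Apob* and *Apoe* were slightly higher in the table of sh2, by log2 values of 0.10 and 0.08, and *Apoc1* differed by 0.03. For *Apob* this amounts to 2751 normalized counts more in sh2 than in sh1 cells, and for *Apoe* to 86 more. *Apoa1* was lower, by a log2 value of -0.09, or 4.57 normalized counts more in sh1 than in sh2 cells. Among genes whose means reach 100 in each table the quartiles of the log2 difference were -0.09 and 0.08, and among those of 10 to 100 they were -0.12 and 0.15. The differences of *Apoa1* and *Apoc1* thus lay inside the quartiles of genes of like level, that of *Apoe* on the upper quartile, that of *Apob* just above it and that of *Mttp* below the lower one. The means allow a Ctrl level of at most 74.2 normalized counts for *Apoa1*, 34.5 for *Apoc1*, 1425 for *Apoe* and 40383 for *Apob*. The median log2 difference of the 5 members was 0.03, and that of all genes 0.0057.

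**Figure D3:**
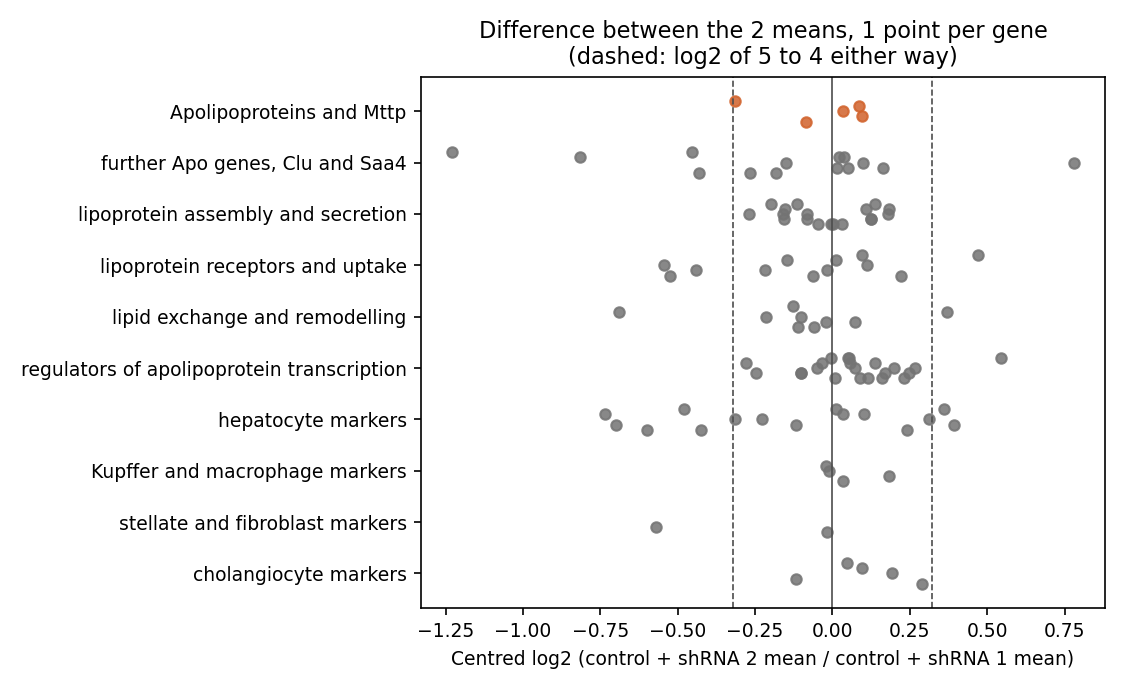
Centred log2 ratio of the mean of the Ctrl and sh2 libraries to the mean of the Ctrl and sh1 libraries, 1 point for each gene listed in both tables, by gene list, with dashed lines at log2 0.32 in either direction. The 5 members, in orange, lie between -0.32 and 0.10, inside the lines, and *Apon*, of the further list, lies at -1.23. The endothelial list had no listed gene and is not drawn.

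Of 18 further genes with an Apo symbol or for lipoprotein-bound proteins (*Clu*, *Saa4*), 14 were listed in both tables, with 1 higher and 4 lower past a log2 value of 0.32 with sh2 and a median log2 difference of -0.07. Their symbols do not make all of them apolipoproteins, since *Apobec1* encodes the deaminase that edits the *Apob* mRNA and *Apobr* a receptor. The 4 lower ones, *Apon*, *Saa4*, *Apof* and *Apobec1* (log2 difference -0.43), and the higher one, *Apol9a*, are named because their values were seen, and each had means under 100 normalized counts, where more genes pass the limit than at higher means. *Saa4* (7.91 and 4.71 normalized counts), *Apof* (5.05 and 3.87) and *Apol9a* (2.53 and 4.56) had means under 10, below the range of the 16.1% share. Of the 1755 genes past the limit, 13.2% of all in both tables, 950 had means of at least 10 in both. By level per kb the 14 were led by *Clu* (clusterin, also called apolipoprotein J), with 32683 and 36687 normalized counts, by *Apoc2*, and by *Apoo*, a mitochondrial protein despite its name, with 86.1 and 79.6. *Apon* lay farthest out. Its mean was 31.9 normalized counts with sh1 and 13.6 with sh2 after centring, a log2 difference of -1.23. If the Ctrl libraries are shared, its Ctrl level can be at most 27.2 and its sh1 level must be at least 36.5 normalized counts, without a replicate check. It was the only gene of all the lists whose means differed by more than 2-fold, as 124 of all genes did.

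Of 21 genes that load and export the particles, 18 were listed in both tables, and 0 passed the limit. Since 15 of the 18 had means of at least 100, where 4.2% of genes passed, this count does not set them apart from other genes. They had log2 differences from -0.27 to 0.18 and a median of -0.03. *P4hb*, the protein disulfide isomerase that forms a complex with the *Mttp* product, had 4711 and 4439 normalized counts, and per kb 1647 and 1551 against 7.43 and 6.26 for *Mttp*. *Surf4* and *Mia2*, which act in the export of secretory cargo from the endoplasmic reticulum, had 462 and 458, and 229 and 227 counts per kb. Of 14 receptors and adaptors of uptake, 12 were listed in both, with 1 higher and 3 lower past the limit. Those past it all had means under 100 normalized counts. Of these, *Amn* (4.62 and 3.36 normalized counts) and *Mylip* (9.69 and 14.1) had a mean under 10. Over all genes 13.2% passed, and 16.1% at means of 10 to 100. No share was computed for genes with a mean under 10, so the 16.1% does not cover *Amn* and *Mylip*. *Lsr*, a receptor for lipolysed lipoproteins, was the highest of the 12 per kb, at 234 and 247 counts per kb. Of 13 genes of lipid exchange and remodelling, 9 were listed in both, with 1 higher and 1 lower, and these too had means under 100. The lower one, *Pltp* (14.8 and 9.62 normalized counts), also had a mean under 10. *Angptl4*, an inhibitor of lipoprotein lipase, had 89.9 and 87.8 counts per kb, the lipase *Lpl* 45.2 and 40.8, and the cholesterol exporter *Abca1*, which lipidates the *Apoa1* product, 32.0 and 31.0.

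Of 23 regulators known to act on apolipoprotein transcription, 22 were listed in both tables. Among all protein-coding genes, 57.3% were listed in at least one table. Whether the regulators bear on which members were listed was not tested. Past the limit, 1 of the 22 was higher with sh2 and 0 were lower, and their median log2 difference was 0.07. Of the 22, 18 had means of at least 100, where 4.2% of genes passed. *Nr1h4* (the bile acid receptor FXR) had 344 and 297 counts per kb and *Hnf4a* 298 and 324, levels close to those of *Apoe* and far above those of *Apoa1*.

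Against the label of hepatocytes, 15 of 17 identifiers in the hepatocyte list were listed in both tables, with *Ttr*, *Alb* and *Ambp* highest at 2049 and 2165, 1053 and 888, and 896 and 1007 counts per kb. Other markers of the list were low, *Ahsg* at 5.38 and 3.47, *Afp* at 5.17 and 4.04 and *Fgg* at 2.01 and 1.94 counts per kb, which is below *Mttp*. *Apob* lay between *Ttr* and *Alb* in both tables. Past the limit, 2 of the 15 were higher and 5 lower with sh2, with a median log2 difference of -0.12. Over all genes 13.2% passed, with 16.1% at means of 10 to 100 and 4.2% at 100 or more. Whether the list differs from these shares was not tested. Among the lower markers, *Ahsg* (7.92 and 5.11 normalized counts) and *Afp* (10.8 and 8.42) had very low means, below the range of the 16.1% share. *Fgb* (122 and 84.3 normalized counts, log2 difference -0.60) and *Fga* (87.2 and 65.6, log2 difference -0.48) were lower at higher means. *Serpina1c* (67.1 and 92.3, log2 difference 0.39) was higher. Of the markers past the limit, *Rbp4* (588 and 371 normalized counts, log2 difference -0.73) and *Serpina1a* (316 and 426, log2 difference 0.36) had means that reach 100 in each table. *Serpina1a* and *Serpina1c* belong to a family of near-identical copies, so their values are uncertain. *Alb*, at -0.31, lay just inside the limit like *Mttp*. Of 6 bile duct markers 5 were listed. *Spp1*, *Krt19* and *Krt7* were highest, at 2448 and 2650, 1537 and 1484, and 192 and 229 counts per kb, and *Spp1* lay above *Apob* in both tables, *Krt19* in the table of sh1. *Sox9* stood at 162 and 181 counts per kb and *Cftr* at 3.68 and 4.71, and *Epcam* had no row. The 5 listed differed by log2 values of -0.12 to 0.29 between the tables, 0 of 5 past the limit. Of 8 macrophage markers 4 were listed, with *Cd14* at 312 and 335, *Cd68* at 20.0 and 23.7 and *Csf1r* at 5.01 and 5.21 counts per kb. Of 8 stellate cell markers *Des* and *Col1a1* were listed, at 2.14 and 1.51, and 0.587 and 0.608 counts per kb, and of 6 endothelial markers 0 were listed. All libraries came from cultures of the same line, AML12, so these marker lists describe the RNA of that line. Whether its cells differ among themselves in the markers or the members was not tested.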

How the data were processed

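RNA-seq libraries of AML12 cells (3 Ctrl, 3 sh1, 3 sh2) were grouped by their titles. The descriptions of 2 Ctrl libraries name tables of further hairpins, which were not analysed here, in place of the table of sh2. Limits and differences between groups assume that all 3 Ctrl libraries are in both tables. Per the paper and the labels, the authors aligned trimmed reads with TopHat2 (mm9), assigned the uniquely placed pairs to genes of GENCODE M1 by HTSeq and ran DESeq2 version 1.8.2. Library construction is described as strand-specific, and the strand setting of the counting is not given in the sources used here. The value used is the expression signal that the authors deposited as the mean normalized count of each gene over the libraries of a table. The deposited columns of fold change, standard error, test statistic and p-value hold the authors' own comparisons and were not used.

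All 13643 identifiers were found in GENCODE M1, whose coordinates are those of NCBIM37 (mm9). Means were divided by the merged exon length in kb and ranked among the listed genes of a table. The log2 ratio of the 2 means of a gene was centred on the median of genes whose means reach 100 in each table, and log2 differences past 0.32 (a ratio of 5 to 4) were counted. Upper limits of a group follow from means that cannot be under 0. The arithmetic was tested on simulated data. RefSeq promoters were searched for short motifs. Alternatives were other centrings, folds, minimum means, lengths and gene types.

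The members and gene lists were chosen with earlier results of these data known. Named are the members, the 3 genes of each other list with the highest level per kb, list genes past this ratio whose means reach 100, and genes of the member clusters. Further list genes were named after their values were seen. Some items that this rule names are not reported here. Precision cannot be given, since values per library and depths were not used. Python 3.11.15, numpy 2.4.6, pandas 2.3.3 and matplotlib 3.10.9 were used.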

Additional observations from a re-analysis of the deposited data

How the results depend on the processing

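No paired analysis was possible because the tables hold means over libraries and no value per library. For the same reason no replicate could be left out. The number of members past the fold was 0 of 5 under each centring tried, with a minimum mean of 10 and at 1.5-fold, and 1, *Mttp*, at 1.1-fold. Over all genes, 1755 (13.2%) passed at the ratio of 5 to 4, 5422 (40.9%) at 1.1-fold and 535 at 1.5-fold. With a minimum mean of 10 in both tables, 950 passed. Without centring the count was 1903. The log2 differences of the 5 members kept their sign under the 3 other centrings, and that of *Mttp* ranged from -0.25 without centring to -0.32. Of the percentiles per kb, that of *Apoa1* moved farthest under the other length, gene types and table, from 42.8 to 40.0 among protein-coding genes. The order of *Apoa1* and *Apoc1* in the table of sh1 reversed with the longest transcript as the length (42.4 and 40.7).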
